A study of Homo sapiens with 6 samples.

Results

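Respiratory complex I takes electrons from NADH and passes them to ubiquinone, and it is the entry point of the respiratory chain for most of the NADH made in mitochondria. It is built as a matrix arm, where NADH is oxidised and electrons run along iron-sulfur clusters, and a membrane arm, which pumps protons. Its catalytic core is encoded in part by nuclear and in part by mitochondrial DNA, and accessory subunits, all nuclear, surround the core and are needed for assembly or stability. The nuclear subunits were taken here as the genes whose symbol in the deposited expression table is NDUFA, NDUFB, NDUFC, NDUFS or NDUFV followed by a number, or NDUFAB1, with the assembly factors (NDUFAF) left out. This gave 36 genes of the 16730 in that table, and the same Ensembl identifiers were followed in the count table of 57905 genes. All 36 are annotated as protein-coding. NDUFA1 and NDUFAB1 had no entry under these symbols in the expression table, so they are no members and are described apart.

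NALM6, an established human cell line from B cell precursor acute lymphoblastic leukemia (B-ALL), was treated for 24 h with the solvent DMSO (3 libraries) or with 500 nM of THZ1 (3 libraries), a covalent inhibitor of the transcription and cell cycle kinase CDK7. The study asked, among other questions, how CDK7 inhibition alters the metabolism of B-ALL cells, and no genetic change was introduced in either group. The cells of both groups are 1 cell line, and the labels do not say whether the libraries of a treatment come from separate cultures, so p-values measure the spread between libraries, which may be technical. The DMSO libraries held 11015480 to 11164840 counts on genes and the THZ1 libraries 7876402 to 8314306, so depth and treatment cannot be told apart. Summed over the 11 B precursor markers checked, the level was 4004 to 4165 CPM (counts scaled to a common library size after TMM) with DMSO and 2116 to 2187 CPM with THZ1, with 8 of the markers lower and 2 higher. Of all genes tested, 41.1% were lower and 43.5% higher. The 5 T cell markers summed to at most 0.969 CPM in any library, the 5 myeloid markers to 12.7 to 17.1 CPM, and the 5 erythroid markers to 0.246 to 0.422 CPM with DMSO and 5.61 to 6.64 CPM with THZ1. As these are bulk libraries, fewer cells of a type and less RNA per cell cannot be told apart.

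The nuclear subunits did not move together: after THZ1 some fell severalfold while others rose severalfold, and their sum under TMM scaling hardly moved. All 36 passed the filter on low counts, but 2, NDUFA7 and NDUFB8, passed it through the THZ1 libraries, where they are higher, and a gene that passes in this way had to differ. At an adjusted p-value below 0.05 (edgeR's quasi-likelihood test, adjusted by Benjamini-Hochberg over the 16622 genes that passed), 17 of the 36 (47.2%) were lower with THZ1, against 41.1% of all genes, and 15 (41.7%) were higher, against 43.5%. Among the 34 members that reached the cutoff in every library 17 were lower and 13 higher. Of the 11929 protein-coding genes tested, 47.6% were lower and 36.3% higher, and all 36 members are protein-coding. The shares of the 36 lay near those of all genes. With library sizes alone 21 were lower and 12 higher, and so were 48.0% and 38.0% of all genes. With TMM the remaining 4, NDUFS6, NDUFA6, NDUFC1 and NDUFA4, were not called. The median log2 fold change of THZ1 over DMSO (log2FC, given with its standard error, SE) was −0.17, beside 0.0278 over all genes and −0.20 over the 11929 protein-coding genes tested, and it turned to 0.0267 with upper quartile factors, which moved the median of all genes by 0.19. 3 members were lower by at least 1.5 on the log2 scale, NDUFB5, NDUFA8 and NDUFS1, where 12.9% of all genes were, and 4 were higher by at least that much, NDUFA13, NDUFA7, NDUFV2 and NDUFA11, where 24.6% of all genes were. Of the 11929 protein-coding genes, 1585 were lower and 1831 higher by that much. In the deposited FPKM values 1 member was higher by that much, NDUFA13 at 2.44 on the log2(FPKM + 1) scale, while NDUFA11 was at 1.22, NDUFA7 at 1.08 and NDUFV2 at 0.91. The DMSO and THZ1 libraries did not overlap for 16 members on the lower side, against 41.3% of all genes, and for 15 on the higher side, against 43.4%. Among the 11929 protein-coding genes this held for 5715 on the lower side and 4337 on the higher side. A part of the higher members carries a limit on counting. In 7 members at least 10% of the bases of the canonical transcript lie in exons of another gene on the same strand, and reads from such bases may be split or dropped by the counting. Of these 7, 6 were higher and 1 was lower. Among the other 29 members 16 were lower and 9 higher, with a median of −0.34, and none of them was higher by 1.5 or more.

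**Figure D1:**
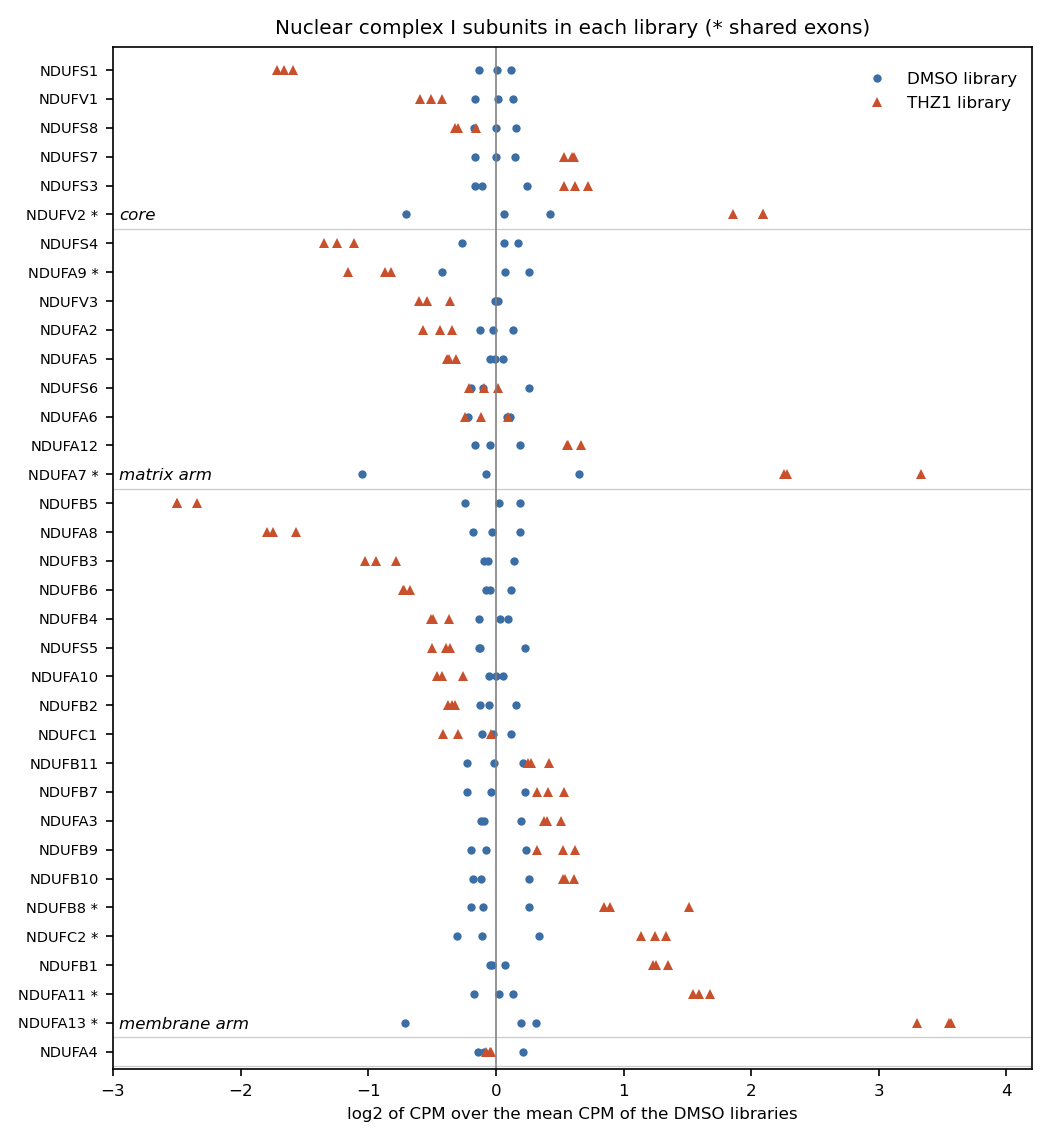
The rows are nuclear complex I subunits, ordered by fold change within the core, the matrix arm and the membrane arm, and the horizontal axis is the log2 of its CPM over the mean CPM of the 3 DMSO libraries. Blue circles are DMSO and orange triangles THZ1 libraries, and a star marks the 7 members with shared exons. The THZ1 libraries lie to the left of the DMSO libraries in NDUFB5, NDUFA8 and NDUFS1 and to the right in NDUFA13, NDUFA7 and NDUFV2, whereas in NDUFS6, NDUFA6, NDUFC1 and NDUFA4, and in the called NDUFS8, the treatments overlap.

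The promoters of these genes were compared next, since members of 1 complex moved apart. RefSeq windows from 250 bases before to 50 bases after the gene start (GRCh38.p14) were at hand for 30 of the 36 members and for 27305 genes in all, and each motif was searched by its letters on both strands. A gene counted as holding a motif if any of its windows did. The core of the NRF1 site, GCGCATGC, which overlaps its own reverse complement in a palindromic site, was found in 6 of the 30 members (20%) and in 3.68% of all genes with a window. NRF1, YY1 and ETS factors such as GABP are known activators of nuclear genes of the respiratory chain. The YY1 core AAGATGGCG was found in 6 of the 30 members (20%) and in 2.14% of all genes with a window. The ETS core CCGGAAG was present in 4 of the 30 members (13.3%) and in 12.2% of all genes with a window, and the E-box CACGTG in 3 of the 30 members (10%) and in 8.77% of these genes. TATAAA was found in 3 of the 30 members (10%) and in 14.0% of all genes with a window, and CCAAT in 8 of the 30 members (26.7%) and in 39.7% of these genes. By direction, the NRF1 core was in 3 of the 14 lower members with a window, in 1 of the 13 higher members and in 2 of the 3 not called. The 6 members with the NRF1 core were NDUFS7, NDUFA5, NDUFS6, NDUFA6, NDUFA8 and NDUFB4, and those with the YY1 core were NDUFS7, NDUFS4, NDUFA9, NDUFA6, NDUFA7 and NDUFB8, so that both motifs stood before lower, higher and uncalled members alike. The E-box was in 3 of the 13 higher members, NDUFS7, NDUFA7 and NDUFA11, and in 0 of the 14 lower ones. NDUFA7 passed the filter only through the THZ1 libraries, and NDUFA7 and NDUFA11 share exons, so no split by direction is read from these matches. These are matches of letters in a window and not sites shown to be bound. To show what such windows look like on either side of the change, the bases from 250 before to 30 after the start are given 5′ to 3′ on the gene's strand for a pair of members that fell (NDUFA8 and NDUFS1) and a pair that rose (NDUFS3 and NDUFB1), all free of shared exons by the 10% limit. Capitals mark the motif matches, which are the NRF1 core on both strands in NDUFA8, the ETS core or its reverse complement in NDUFS1 and at both places in NDUFS3, and the reverse complement of CCAAT in NDUFB1.
NDUFA8 (chr9:122159750-122160029, minus strand): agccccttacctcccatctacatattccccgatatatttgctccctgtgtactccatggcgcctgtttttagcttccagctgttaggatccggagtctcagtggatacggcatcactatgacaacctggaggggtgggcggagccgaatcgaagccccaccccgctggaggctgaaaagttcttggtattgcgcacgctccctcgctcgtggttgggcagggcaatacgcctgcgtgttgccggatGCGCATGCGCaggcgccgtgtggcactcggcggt
NDUFS1 (chr2:206159415-206159694, minus strand): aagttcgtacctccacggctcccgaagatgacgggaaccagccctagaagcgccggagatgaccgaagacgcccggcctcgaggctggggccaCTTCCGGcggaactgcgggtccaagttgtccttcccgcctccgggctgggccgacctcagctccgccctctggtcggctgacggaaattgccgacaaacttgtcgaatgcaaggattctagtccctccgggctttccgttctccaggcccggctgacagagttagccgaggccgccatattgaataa
NDUFS3 (chr11:47578824-47579103, plus strand): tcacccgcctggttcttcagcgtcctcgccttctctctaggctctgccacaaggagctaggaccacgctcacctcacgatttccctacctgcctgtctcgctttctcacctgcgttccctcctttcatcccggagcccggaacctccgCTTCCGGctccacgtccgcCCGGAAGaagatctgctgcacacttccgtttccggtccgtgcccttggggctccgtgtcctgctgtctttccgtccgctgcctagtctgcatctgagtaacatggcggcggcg
NDUFB1 (chr14:92121677-92121956, minus strand): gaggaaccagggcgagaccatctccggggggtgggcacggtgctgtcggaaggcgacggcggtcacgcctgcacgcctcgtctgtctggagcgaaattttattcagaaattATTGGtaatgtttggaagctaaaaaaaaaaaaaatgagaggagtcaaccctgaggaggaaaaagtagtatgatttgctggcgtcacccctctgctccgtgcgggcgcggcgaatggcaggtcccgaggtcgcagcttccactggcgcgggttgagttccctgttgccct

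Of the 7 nuclear core subunits, which bind NADH, hold the iron-sulfur clusters and form the ubiquinone site, 4 were lower and 3 higher with THZ1. These are 57.1% and 42.9%, beside 41.1% and 43.5% of all genes. The largest fall and the largest rise in the core were both among subunits of the module that oxidises NADH. NDUFS1 (ENSG00000023228, chromosome 2 from 206979541 to 207024233), the largest subunit and the holder of several iron-sulfur clusters, had 114, 123 and 104 CPM in DMSO replicates 1 to 3 and 34.6, 35.9 and 37.7 CPM in THZ1 replicates 1 to 3. Every THZ1 library was lower than every DMSO library, and the log2FC was −1.66 (SE 0.09, adjusted p = 1.67e-17). NDUFV1 (ENSG00000167792, chromosome 11 from 67373124 to 67380025), which binds NADH and the flavin, had 212, 187 and 229.6 CPM under DMSO and 156, 147 and 139 CPM under THZ1, a log2FC of −0.51 (SE 0.08, adjusted p = 3.74e-07). NDUFV2 (ENSG00000178127, chromosome 18 from 9102628 to 9134343), which carries an iron-sulfur cluster beside the flavin, went the other way, from 1.16, 1.97 and 2.53 CPM to 6.84, 8.03 and 8.02 CPM. Its log2FC was 2.01 (SE 0.25, adjusted p = 1.38e-08), but 90.0% of the bases of its canonical transcript are shared with ENSG00000265257, a long non-coding RNA gene on the same strand with 0 counts in all libraries, and its level was low.

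Other core subunits belong to the module that hands electrons to ubiquinone, and NDUFS7 and NDUFS3 among them rose by more than the spread between libraries. NDUFS7 (ENSG00000115286, chromosome 19 from 1383526 to 1395588), which holds the cluster nearest to ubiquinone, had 113, 101 and 125 CPM under DMSO and 173, 171 and 164 CPM under THZ1, a log2FC of 0.58 (SE 0.08, adjusted p = 3.05e-08). ENSG00000248015 covers 37.3% of its transcript on the opposite strand, and since the strand setting of the counting is not given, reads of both may be mixed. NDUFS3 (ENSG00000213619, chromosome 11 from 47586888 to 47606114), a subunit of the first assembly steps whose promoter is shown above, had 91.3, 87.8 and 117 CPM under DMSO and 163, 143 and 151 CPM under THZ1, a log2FC of 0.63 (SE 0.09, adjusted p = 7.22e-08). NDUFS8 (ENSG00000110717, chromosome 11 from 67798084 to 67804111), which carries iron-sulfur clusters between the modules, had 73.3, 65.2 and 81.9 CPM under DMSO and 59.7, 58.8 and 65.8 CPM under THZ1. It was called lower, at −0.26 (SE 0.09, adjusted p = 0.00827), although the highest THZ1 library lay above the lowest DMSO library, and its adjusted p-value rose to 0.501 with upper quartile factors and to 0.0528 with DESeq2.

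Among the 9 accessory subunits of the matrix arm, 5 (55.6%) were lower, 2 (22.2%) were higher and 2 were not called, with a median log2FC of −0.36. Over all genes 41.1% were lower and 43.5% higher. NDUFS4 (ENSG00000164258, chromosome 5 from 52856463 to 52979168), a subunit of the NADH module in which inherited defects cause Leigh syndrome, fell most. It had 20.2, 16.1 and 21.8 CPM under DMSO and 8.94, 8.17 and 7.62 CPM under THZ1, with no overlap and a log2FC of −1.23 (SE 0.15, adjusted p = 1.14e-08). NDUFA9 (ENSG00000139180, chromosome 12 from 4758261 to 4803483), which binds a pyridine nucleotide near the ubiquinone module, had only 3.47, 5.57 and 4.89 CPM under DMSO and 2.63, 2.08 and 2.54 CPM under THZ1. The log2FC was −0.94 (SE 0.27, adjusted p = 0.00196), and 11.7% of its transcript is shared with other genes on its strand. The fall was larger in the deposited FPKM values, from 1.98 ± 0.305 to 0.245 ± 0.0275 FPKM, a log2FC of −2.58 with a pseudocount of 0.1. NDUFV3 (ENSG00000160194, chromosome 21 from 44299754 to 44333414), a small subunit of the NADH module, went from 29.9, 29.6 and 29.5 CPM to 20.4, 23.1 and 19.5 CPM, a log2FC of −0.50 (SE 0.11, adjusted p = 0.000122). The DMSO libraries of this gene were nearly alike and all THZ1 libraries were below them. NDUFA2, with a thioredoxin-like fold, followed at −0.45 (adjusted p = 4.32e-05). NDUFA5 (ENSG00000128609, chromosome 7 from 123177051 to 123197958), an accessory subunit of the ubiquinone module, had 71.2, 69.2 and 74.3 CPM under DMSO and 55.4, 57.6 and 54.8 CPM under THZ1. It was lower at −0.36 (SE 0.08, adjusted p = 0.000187) without overlap, but its adjusted p-value was 0.0639 with upper quartile factors.

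The matrix arm also held subunits that rose or were not called. NDUFA12 (ENSG00000184752, chromosome 12 from 95289073 to 95397524), a relative of the assembly factor NDUFAF2, had 46.2, 42.5 and 54.3 CPM under DMSO and 70.6, 75.4 and 70.1 CPM under THZ1, all higher with THZ1, and a log2FC of 0.60 (SE 0.09, adjusted p = 4.32e-07). NDUFA7 (ENSG00000267855, chromosome 19 from 8373652 to 8386259) had the highest fold change of the arm, 2.67 (SE 0.42, adjusted p = 6.99e-07), on the lowest counts of all members. It held 6, 10 and 3 counts in the DMSO libraries and 19, 38 and 19 in the THZ1 libraries, or 0.496, 0.820 and 0.253 CPM and 2.50, 5.26 and 2.54 CPM. The libraries did not overlap, but within each treatment the levels spread widely, and 77.9% of the transcript is shared with ENSG00000167774 on the same strand. On the opposite strand RPS28, a ribosomal protein gene with far more counts, covers 11.7% of it. With no DMSO library at the cutoff of the filter, the call of NDUFA7 is given as a description only. NDUFS6 (ENSG00000145494, chromosome 5 from 1801521 to 1816162), which binds zinc, had 76.6, 71.7 and 98.6 CPM under DMSO and 71.3, 77.2 and 83.2 CPM under THZ1, overlapping between treatments, and was not called (log2FC −0.0912, SE 0.10, adjusted p = 0.372). NDUFA6 (ENSG00000184983, chromosome 22 from 42481530 to 42486888), which docks the mitochondrial acyl carrier protein onto complex I, had 49.7, 40.1 and 50.5 CPM under DMSO and 43.0, 39.5 and 49.9 CPM under THZ1, also overlapping, with a log2FC of −0.0828 (SE 0.10, adjusted p = 0.450). The direction of both flipped with upper quartile factors, to 0.10 for NDUFS6 and 0.11 for NDUFA6, and without DMSO replicate 2 both were called lower, at −0.20 (adjusted p = 0.0203) and −0.20 (adjusted p = 0.0399).

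The membrane arm showed the widest range. Beside 41.1% lower and 43.5% higher over all genes, 8 of its 19 accessory members (42.1%) were lower, 10 (52.6%) were higher and 1 was not called. The median log2FC was 0.31, which turned to −0.21 in the deposited FPKM values (on the log2(FPKM + 1) scale, with limma) and was 0.19 without DMSO replicate 2. NDUFB5 (ENSG00000136521, chromosome 3 from 179322478 to 179345435), a subunit of the distal membrane arm, fell most of all 36 members. Its level was 49.9, 41.4 and 55.9 CPM in the DMSO libraries and 8.68, 9.69 and 8.69 CPM in the THZ1 libraries, a log2FC of −2.44 (SE 0.13, adjusted p = 2.36e-17), or a 5.44-fold lower level. NDUFA8 (ENSG00000119421, chromosome 9 from 124906337 to 124922058), a disulfide-bonded subunit on the intermembrane side, had 35.5, 32.0 and 41.2 CPM under DMSO and 12.2, 10.8 and 10.4 CPM under THZ1, and the log2FC was −1.70 (SE 0.13, adjusted p = 1.26e-13). NDUFB3 (ENSG00000119013, chromosome 2 from 201936156 to 201950473), also of the distal arm, had 42.1, 42.9 and 49.6 CPM under DMSO and 22.1, 23.4 and 26.1 CPM under THZ1, a log2FC of −0.91 (SE 0.10, adjusted p = 2.03e-09). In all of these every THZ1 library was below every DMSO library. NDUFB6 (−0.71), NDUFB4 (−0.46), NDUFS5 (−0.42) and NDUFA10 (−0.38) were lower too, with adjusted p-values of 2.91e-07, 2.61e-05, 0.000408 and 3.06e-05 in this order. NDUFS5 is another disulfide-bonded subunit of the intermembrane side, and NDUFA10 resembles nucleoside kinases. NDUFB2 (ENSG00000090266, chromosome 7 from 140390577 to 140422590) had 64.7, 61.7 and 75.1 CPM under DMSO and 53.0, 51.8 and 53.9 CPM under THZ1 and was lower at −0.34 (SE 0.09, adjusted p = 0.000629), with an adjusted p-value of 0.109 under upper quartile factors. NDUFB2-AS1 covers 24.3% of the transcript of NDUFB2 on the opposite strand. NDUFC1 (ENSG00000109390, chromosome 4 from 140188034 to 140223705), a small subunit beside NDUFC2, had 22.5, 21.1 and 24.8 CPM under DMSO and 17.1, 18.5 and 22.2 CPM under THZ1, which overlapped, and was not called at −0.24 (SE 0.12, adjusted p = 0.0680). Without DMSO replicate 2 or without THZ1 replicate 3, NDUFC1 was called lower, at −0.32 (adjusted p = 0.0180) and −0.37 (adjusted p = 0.0179).

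Several membrane arm members rose by less than 1 on the log2 scale. NDUFB9 (ENSG00000147684, chromosome 8 from 125551342 to 125592889), which like NDUFA6 docks the acyl carrier protein, was at 0.49 (adjusted p = 1.05e-05) and had 86.1, 79.3 and 107 CPM under DMSO and 139, 130.3 and 113 CPM under THZ1. NDUFB10 (ENSG00000140990, chromosome 16 from 2009539 to 2011976), a disulfide-bonded subunit of the distal arm, was at 0.56 (adjusted p = 1.68e-06), with 57.8, 55.2 and 74.9 CPM under DMSO and 95.6, 91.4 and 90.1 CPM under THZ1. In both, no THZ1 library reached down to the DMSO libraries. NDUFB11 (ENSG00000147123, chromosome X from 47001470 to 47004865), encoded on the X chromosome, had 92.5, 79.8 and 108 CPM under DMSO and 111, 125 and 113 CPM under THZ1, a log2FC of 0.31 (SE 0.09, adjusted p = 0.00145). NDUFB7 (ENSG00000099795, chromosome 19 from 14676890 to 14682878), on the intermembrane side, had 72.9, 64.3 and 88.1 CPM under DMSO and 99.5, 93.9 and 108 CPM under THZ1, a log2FC of 0.42 (SE 0.09, adjusted p = 9.26e-05). NDUFA3 (ENSG00000170906, chromosome 19 from 54606036 to 54612564), of the proximal membrane arm, had 28.3, 27.8 and 34.5 CPM under DMSO and 39.2, 42.9 and 39.8 CPM under THZ1, a log2FC of 0.43 (SE 0.10, adjusted p = 0.000312). The libraries of the last 3 genes did not overlap either, but with library sizes alone their adjusted p-values were 0.446, 0.0646 and 0.0939. In the deposited FPKM values NDUFB11 was at 0.0223 (adjusted p = 0.837) and NDUFB7 at 0.13 (adjusted p = 0.162) by limma, neither called. Without DMSO replicate 2 NDUFB11 fell to 0.19 and was still called. Genes on the opposite strand cover 23.9% of the transcript of NDUFB9 and 15.9% of that of NDUFA3, and likewise 27.4% in the lower NDUFA2 and 12.1% in NDUFS1.

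The members with the largest rises were NDUFB1, which shares no exon with another gene, and members with shared exons. NDUFB1 (ENSG00000183648, chromosome 14 from 92582466 to 92588261), a small subunit of the distal membrane arm whose promoter is shown above, had 19.8, 19.6 and 21.2 CPM under DMSO and 48.1, 51.5 and 47.3 CPM under THZ1. The replicates were close and the log2FC was 1.28 (SE 0.10, adjusted p = 2.56e-13), the highest among the 29 members without shared exons. NDUFA13 (ENSG00000186010, chromosome 19 from 19626545 to 19639863), also known as GRIM-19, had 2.23, 2.05 and 1.10 CPM under DMSO and 21.2, 21.0 and 17.6 CPM under THZ1, the highest fold change of all members at 3.46 (SE 0.20, adjusted p = 2.90e-16). NDUFA11 (ENSG00000174886, chromosome 19 from 5891287 to 5904017), a membrane subunit at the contact with complex III in supercomplexes, had 13.4, 10.8 and 12.4 CPM under DMSO and 35.6, 39.0 and 36.8 CPM under THZ1, a log2FC of 1.60 (SE 0.12, adjusted p = 5.56e-14). In NDUFA13 the highest DMSO library was about double the lowest, a wider relative spread than in the THZ1 libraries, and in neither gene did the treatments overlap. NDUFC2 (ENSG00000151366, chromosome 11 from 77779343 to 77790908) had 4.88, 5.57 and 7.59 CPM under DMSO and 15.1, 14.3 and 13.2 CPM under THZ1, a log2FC of 1.24 (SE 0.17, adjusted p = 9.75e-08). NDUFB8 (ENSG00000166136, chromosome 10 from 102283497 to 102289757), a distal subunit widely used as a protein marker of assembled complex I, had 1.16, 0.902 and 0.844 CPM under DMSO and 2.76, 1.80 and 1.74 CPM under THZ1, a log2FC of 1.11 (SE 0.37, adjusted p = 0.00637). NDUFB8 reached the cutoff of the filter in 1 DMSO library only. Its call depended on 1 library and on the table: without THZ1 replicate 1 the log2FC was 0.85 with an adjusted p-value of 0.0743, with DESeq2 the adjusted p-value was 0.0603, and in the deposited FPKM values the log2FC was −0.21. The shared part of the transcript was 83.9% in NDUFA13, 68.2% in NDUFA11, 72.0% in NDUFB8 and 19.7% in NDUFC2, where the other gene is the read-through gene NDUFC2-KCTD14. All the genes that overlap these 4 on the same strand had 0 counts in every library.

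NDUFA4 (ENSG00000189043, chromosome 7 from 10971570 to 10979780), long listed with complex I and now counted with complex IV, had 85.8, 83.0 and 106 CPM under DMSO and 86.9, 88.7 and 89.6 CPM under THZ1. The treatments overlapped and it was not called, at −0.0533 (SE 0.09, adjusted p = 0.563). Its direction turned with RLE factors (0.0141) and without DMSO replicate 3 (0.0464), whereas with library sizes alone it was called lower, at −0.30 (adjusted p = 0.00154). With the same scaling the other members not called were called lower too, NDUFS6 at −0.34, NDUFA6 at −0.33 and NDUFC1 at −0.49. The subunits outside the rule moved strongly in opposite directions. NDUFAB1 (ENSG00000004779, chromosome 16 from 23592335 to 23607637), the mitochondrial acyl carrier protein that sits in complex I and serves fatty acid and lipoate synthesis, had 94.1, 82.8 and 108 CPM under DMSO and 37.7, 34.9 and 33.7 CPM under THZ1, a log2FC of −1.42 (SE 0.10, adjusted p = 8.07e-15). NDUFA1 (ENSG00000125356, chromosome X from 119005795 to 119010625), a small membrane subunit, had 53.3, 50.2 and 60.2 CPM under DMSO and 188, 207 and 200.1 CPM under THZ1, a log2FC of 1.86 (SE 0.08, adjusted p = 5.85e-20). Neither gene's libraries overlapped, and neither shares exons with another gene in the annotation.

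**Figure D2:**
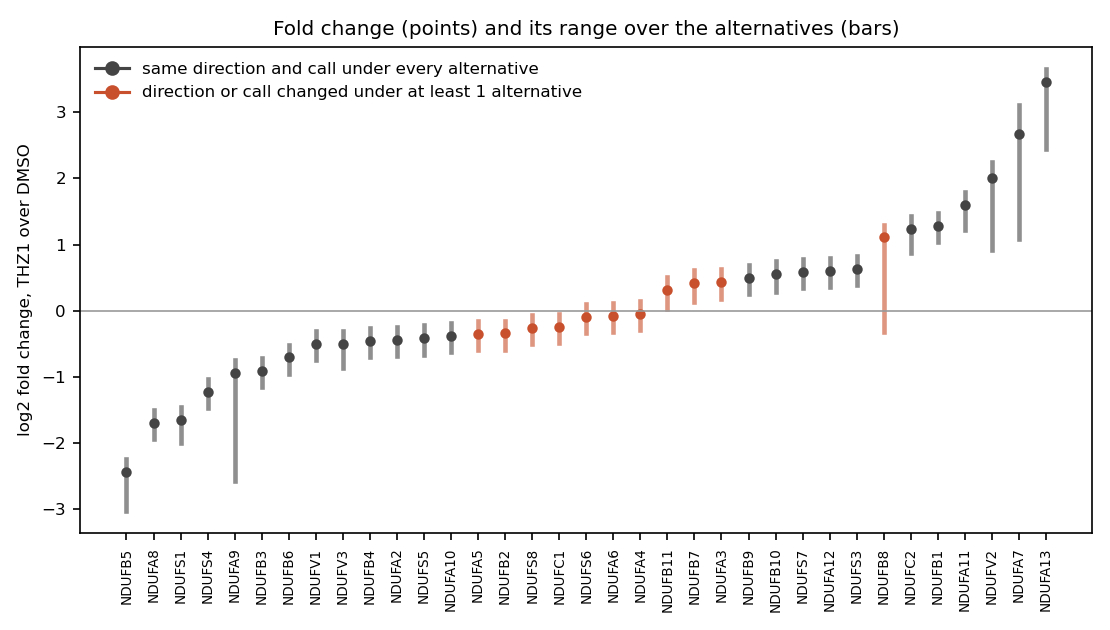
Points give the log2 fold change (THZ1 over DMSO) of members and bars the range over up to 16 other settings of scaling, filter, test, table and libraries. Black marks members that kept direction and call under every setting run, and orange marks the 11 that did not, whose values lie mostly near 0, with NDUFB8 as an exception, reaching from −0.32 to 1.30.

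Levels can be compared between subunits only per length, and here the deposited FPKM values (fragments scaled by transcript length and library size, taken back from the log2 scale) were used. NDUFB7 was highest, with 409 ± 34.1 FPKM with DMSO and 446 ± 28.4 FPKM with THZ1 (SD, n = 3 libraries each). NDUFS5 followed at 268 ± 23.2 FPKM with DMSO, then NDUFB11 at 194 ± 22.7 and NDUFB10 at 175 ± 23.6, and the last pair did not differ beyond its spread. At the low end stood NDUFA7 (1.74 ± 0.588 FPKM), NDUFA9 (1.98 ± 0.305), NDUFB8 (2.10 ± 0.290), NDUFA13 (2.65 ± 0.667) and NDUFV2 (2.78 ± 0.854), neighbours that were within their spread of each other, and then NDUFA11 (7.83 ± 0.785) and NDUFC2 (8.11 ± 1.75). These 7 are the members with shared exons. The highest of them stood at 8.11 FPKM with DMSO, below the lowest of the other 29, NDUFV3, at 13.5 FPKM. By CPM per kilobase of the canonical transcript, 6 of the 7 were again the lowest, NDUFA11 being the exception at 21.2 CPM per kilobase. The order at the top was not the same by this measure. With DMSO, NDUFB11 (159 CPM per kilobase), NDUFS6 (159), NDUFS7 (149) and NDUFB2 (144) stood above NDUFB7 (140), and NDUFS5 was at 101. The ranking at the top thus depends on the measure. The part of shared exons in the levels or fold changes was not tested. Among the other 29 members the ratio of the highest to the lowest was 30.2 with DMSO and 162 with THZ1, where NDUFB5 was lowest at 2.76 ± 0.168 FPKM. This ratio rests on the genes at the ends alone, and the spread over all 29 was not measured. The median of the 29 went from 74.5 to 58.2 FPKM.

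**Figure D3:**
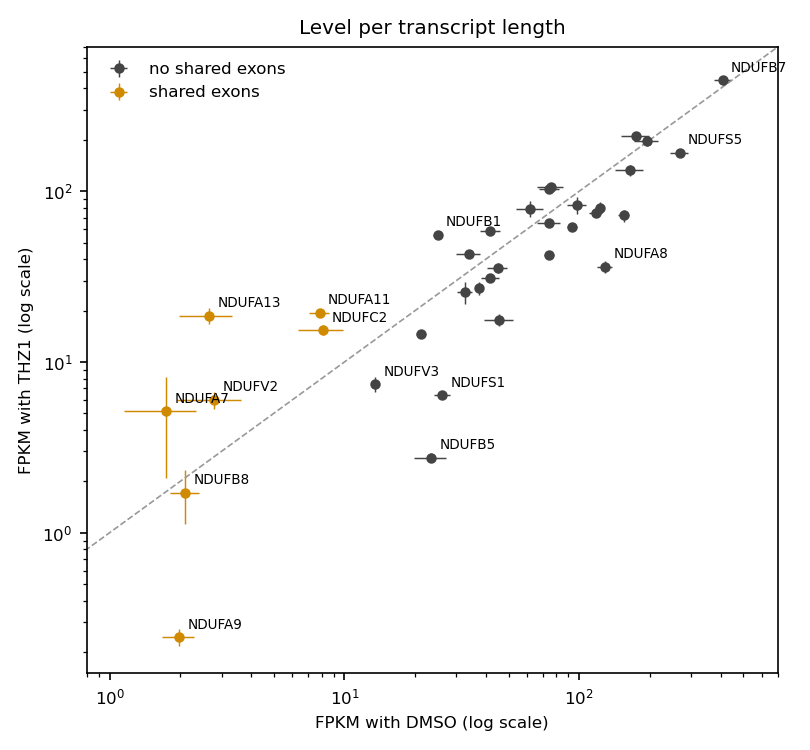
The points are nuclear subunits at their mean FPKM over 3 DMSO libraries (horizontal) and 3 THZ1 libraries (vertical), both on log axes, with SD as error bars and the dashed line at equal levels. The members with shared exons (orange) have the lowest levels with DMSO, up to 8.11 FPKM, and NDUFA9, NDUFB5, NDUFS1 and NDUFA8 lie far below the line.

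The summed level of the 36 subunits was 1965, 1840.1 and 2224 CPM in the DMSO libraries and 1937, 1927 and 1934 CPM in the THZ1 libraries. All 3 THZ1 sums lay within the range of the DMSO sums, which spread far more than they did. The ratio of the means was 0.962 (log2 −0.0560). Scaled by library size alone the log2 ratio was −0.30 and in deposited FPKM −0.21, so the sum depends on the scaling. Without the members with shared exons the log2 ratio was −0.10.

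The subunits share features of gene structure that the rule did not use. The genomic span of the canonical transcript (GENCODE 44 on GRCh37) had a median of 11212 bp in the members and 25940.0 bp in the protein-coding genes tested. The spliced length had medians of 716 and 3240.0 bases, and the members had a median of 4 exons against 9. The subunit genes were thus shorter than the protein-coding genes tested, by these medians. Longer members tended to have lower fold changes: across the 36 genes, Spearman's rho of span and log2FC was −0.38, and −0.50 without the members with shared exons. Over all 11929 protein-coding genes tested the same rho was −0.35, and it was measured in the same libraries. These correlations are across genes of the same 6 libraries, which are not independent replicates, and carry no test. Split at the median span, the 18 members with shorter spans held 6 lower and 10 higher genes (median log2 fold change 0.37), and the 18 with longer spans held 11 lower and 5 higher (median −0.44). Over all genes 41.1% were lower and 43.5% higher, and over the protein-coding genes 47.6% and 36.3%. Other genes were not split in this way, so the split is not read as particular to the subunits. NDUFS4, with the longest span at 122700 bp, was lower, while NDUFB1 spans 5584 bp and was higher. The GC content of the transcript, with a median of 49.8% in the members, had a rho of 0.43 with the fold change, against 0.34 over the protein-coding genes.

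**Figure D4:**
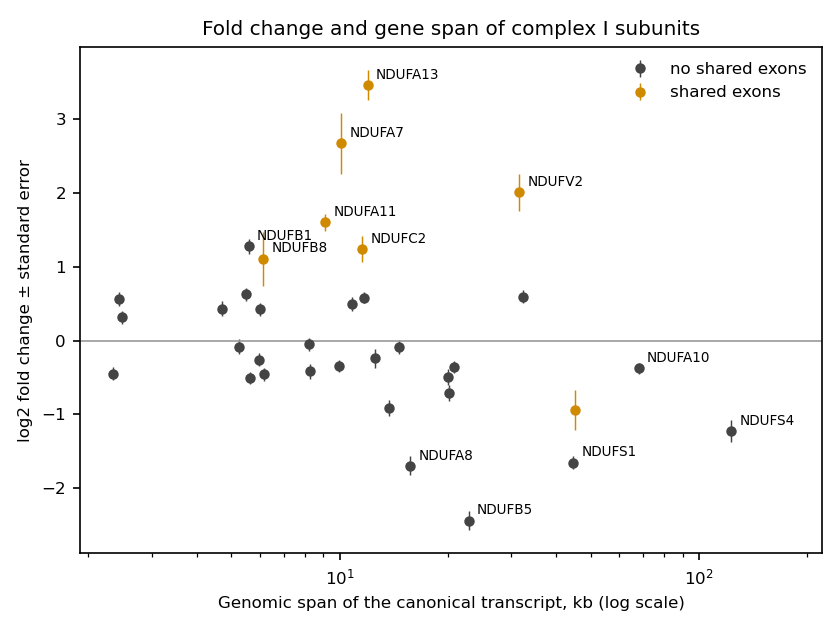
The log2 fold change (THZ1 over DMSO, error bars are the standard error) of nuclear subunits is plotted against the genomic span of its canonical transcript in kb on a log axis, with members with shared exons in orange. The 4 longest genes, NDUFS4, NDUFA10, NDUFA9 and NDUFS1, lie below 0, the next longest, NDUFA12 and NDUFV2, lie above 0 at 0.60 and 2.01, and the short genes lie on both sides.

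By position, 6 members lie on chromosome 19, NDUFS7, NDUFA7, NDUFB7, NDUFA3, NDUFA11 and NDUFA13, and 6 of them were higher, with a median log2FC of 1.09. This grouping was chosen after the values were seen. Of the 1327 genes tested on chromosome 19, 779 (58.7%) were higher, with a median of 0.65, and 3 of the 6 members share exons. The 30 members on other chromosomes held 17 lower and 9 higher genes.

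The mitochondrially encoded core subunits, which form the proton-pumping membrane core, moved otherwise in the counts. Of all genes 43.5% were higher, and 43.4% were higher without overlap. All 7 of these subunits were higher with THZ1 and none overlapped between treatments. Their summed level was 14806, 14884 and 14760.5 CPM with DMSO and 50067, 52566 and 54432 CPM with THZ1, a 3.53-fold rise of the means. MT-ND4L rose most, from 211 ± 47.3 to 1151 ± 79.8 CPM (SD, n = 3 each), a log2FC of 2.45 (SE 0.10, adjusted p = 1.55e-20). The log2FCs of MT-ND1, MT-ND4 and MT-ND2 were 2.03, 1.92 and 1.89, and those of MT-ND3 and MT-ND5 1.60 and 1.5. MT-ND6, the only one of them encoded on the light strand, was lowest at 1.31 (SE 0.07, adjusted p = 5.37e-17), with 1109.9 ± 11.1 CPM under DMSO and 2753 ± 256 CPM under THZ1. The deposited FPKM values gave another picture. There 6 of the genes were listed, only MT-ND3 and MT-ND4L were called higher by limma, the median log2FC was 0.25 and MT-ND6 was at −0.14. For MT-ND2, MT-ND3 and MT-ND6 the FPKM value was the same in all THZ1 libraries (SD 0), by a step that is not stated. The FPKM values of these genes thus carry no spread between the THZ1 libraries. So the direction for MT-ND6, and the size for the 6 genes in both tables, depend on which table is read.

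Most factors that build complex I were lower. Over all genes tested 41.1% were lower and 43.5% higher, and over the protein-coding ones 47.6% and 36.3%. Of the 21 assembly factors, 15 (71.4%) were lower and 0 higher by edgeR, with a median log2FC of −0.87. At an unadjusted p-value below 0.05 0 were higher in edgeR, and 0 were called higher by DESeq2 and 0 by limma on the FPKM values. With upper quartile factors 2 were higher, NDUFAF4 among them at 0.28 (adjusted p = 0.00767), and with at least 10 counts in every library 1 was. AIFM1, which supports the import of intermembrane space proteins, was lowest, with 82.6 ± 5.15 CPM under DMSO and 15.1 ± 2.41 CPM under THZ1 and a log2FC of −2.45 (SE 0.11, adjusted p = 1.39e-19). NDUFAF4 was highest, at 0.0835 (SE 0.09, adjusted p = 0.407) and not called, and its sign flipped with library sizes alone. Of the 11 genes for the synthesis of coenzyme Q, the electron acceptor of complex I, 9 were lower and 0 higher by edgeR (median −0.84). Without adjustment 0 of them passed as higher, and DESeq2 called 0 and limma 0. With upper quartile factors COQ5 was called higher, at 0.31 (adjusted p = 0.00461), as it was with at least 10 counts in every library, at 0.25 (adjusted p = 0.0195). COQ7, the hydroxylase near the end of the pathway, was lowest at −2.03 (SE 0.18, adjusted p = 1.12e-11), and COQ5 highest at 0.12 (SE 0.10, adjusted p = 0.267), which flipped in sign with library sizes alone. Of 13 genes for iron-sulfur cluster assembly, 6 were lower and 4 higher (median −0.16, which turned to 0.0293 with upper quartile factors). FDXR (ferredoxin reductase), the highest of them, rose from 29.2 ± 2.14 to 116 ± 4.39 CPM, a log2FC of 1.99 (SE 0.08, adjusted p = 7.72e-20). Among 8 regulators of nuclear respiratory genes, 4 were lower and 2 higher, from MYC at −2.89 (adjusted p = 3.15e-25) to PPRC1 at 0.63 (adjusted p = 5.27e-10).

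Set beside the nuclear subunits of the other respiratory complexes, complex I (median −0.17) lay between complex V and complex IV. Over all genes tested 41.1% were lower and 43.5% higher. Complex II had 3 of 4 subunits lower and 1 higher (median −0.61), from SDHA at −0.84 to SDHD at 0.47. SDHD shares 23.8% of its transcript with another gene on its strand. Complex III had 4 of 9 lower and 3 higher (median −0.18, or 0.0158 with upper quartile factors), from UQCRC2 at −0.97 to CYC1 at 0.60. Complex IV had 4 of 10 lower and 5 higher (median 0.13, or −0.12 with library sizes alone), from COX7C at −1.35 to COX6A1 at 2.0, which shares exons with another gene on its strand. Complex V, the ATP synthase, had 11 of 18 lower and 5 higher (median −0.64), from ATP5MC1 at −2.07 to ATP5F1B at 1.44. UQCR11 (18.1%) and COX8A (35.4%), both higher, also share part of their transcript with a gene on their strand. In the FPKM values 7 genes of complex IV were listed, of which 2 were lower and 2 higher by limma, and 3 of complex V were higher. Each complex thus held both lower and higher subunits, as complex I did, though in complex II the higher side was SDHD alone. The differences between the complexes were not tested.

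**Figure D5:**
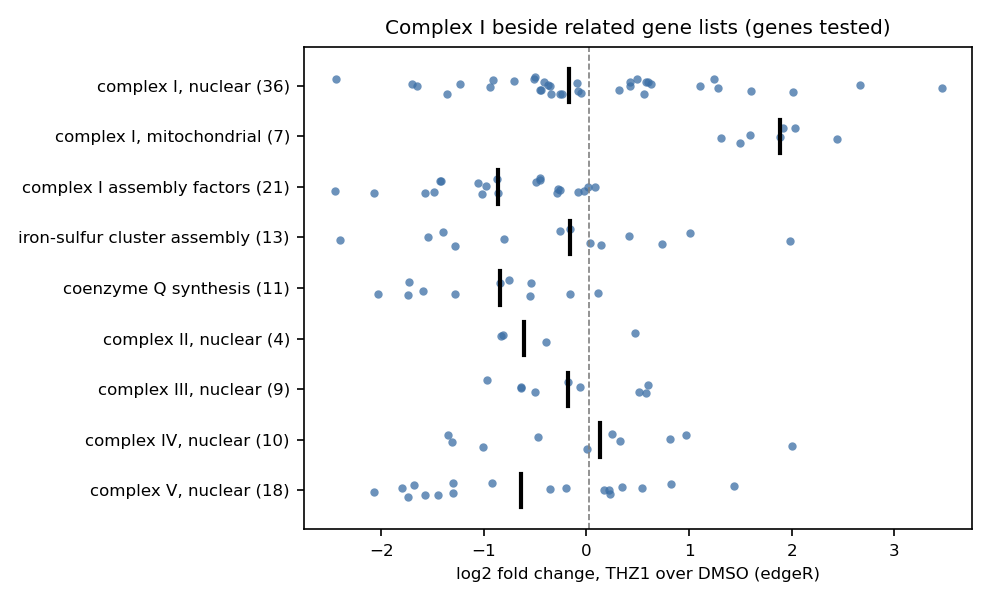
Each point is the log2 fold change (THZ1 over DMSO, edgeR) of 1 gene tested, grouped by list with the number of genes in brackets, the black bar is the median of the list and the dashed line the median of all genes tested (0.0278). The nuclear complex I subunits spread from −2.44 to 3.46, the mitochondrially encoded subunits lie above 1 (in the counts, MT-ND6 flipping in sign in the deposited FPKM values), and most assembly factors and coenzyme Q genes lie below 0, NDUFAF4 and COQ5 flipping in sign with library sizes alone.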

How the data were processed

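RNA-SEQ was performed by the authors on NALM6 cells treated for 24 h with DMSO or 500 nM of THZ1 (3 libraries each). RNA was isolated with TRIzol, the reads were filtered (the submitters' processing notes name cutadapt) and mapped to GRCh37 with STAR, and the authors deposited raw counts of each gene from htseq-count. Annotation, strand setting, overlap mode and counter version are not given in the sources used here. A second deposited table holds FPKM values by RSEM on a log2 scale, read as log2(FPKM + 1), since its lowest value is 0. The design had assumed linear FPKM, so the values were taken back to FPKM before another pseudocount was added. Its sorted values differed between libraries of a treatment by a median of 0.00150 to 0.00170, and the step that made libraries of a treatment so alike is not stated. The authors' p-values, FDR and log2 fold changes in that table were not used. Every sample column was mapped by its name to a label.

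Counts were filtered with filterByExpr by treatment (minimum count 10, minimum total 15), scaled by TMM (an assumption that the level of most genes stays put) and tested with edgeR's quasi-likelihood test over all 16622 genes, and p-values were adjusted by Benjamini-Hochberg. A gene was called at an adjusted p-value below 0.05, two-sided. All values are relative within a library, and RNA per cell was not measured. Floors cover counting error only, whereas SE and SD also hold the spread between libraries, and a floor of 3 counts is 0.246 to 0.415 CPM. Replicates differed by more than the sampling noise (chi-square per gene 1.81 to 9.35), so each counted as 1 library. Symbols, coordinates and overlaps were taken from GENCODE 44 mapped to GRCh37, using the canonical transcript (the longest basic transcript for NDUFB6), and promoters from RefSeq on GRCh38.p14. The pipeline was tested on simulated counts, in which few genes changed, as many up as down. In the data 41.1% of all genes were lower and 43.5% higher, so the simulation does not check the scaling under such a change.

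The members and lists were chosen with earlier results of these data known. Members are named with their log2 fold change, and values per library are given for the core subunits, the 3 lowest and 3 highest of each other group, NDUFA4, NDUFAB1 and each member that was not called, was called against the majority direction (higher) or whose call or sign changed under an alternative. In related lists the lowest and the highest gene are named. The values of 1 member and of 1 gene of a related list are not reported here, and both are in the counts and medians. NDUFA1 was given values outside this rule, after they were seen. The alternatives were library sizes alone, upper quartile or RLE factors, DESeq2, other filters, a replicate block, leaving out each library, limma on the FPKM values (pseudocount 1 or 0.1, mean FPKM of at least 0.1 or 1), other thresholds and, added after seeing the data, leaving out the members with shared exons. The tools were edgeR 4.0.16, DESeq2 1.42.0 and limma 3.58.1 under R 4.3.3, then pandas 2.3.3, scipy 1.17.1 and numpy 2.4.6 under Python 3.11.15, and matplotlib 3.10.9 for figures.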

Additional observations from a re-analysis of the deposited data

How the results depend on the processing

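Of the 36 members, 25 kept their direction and their side of the threshold under every alternative run, up to 16 for each. Over all 575 such comparisons 532 kept both, 16 lost the call, 15 gained it and 12 reversed in sign, and the cause was not tested. The median log2 fold change of the members, −0.17, was 0.0267 with upper quartile factors, −0.41 with library sizes alone, −0.31 in the FPKM values (also with a mean FPKM of at least 1, where it was −0.31), −0.33 with a pseudocount of 0.1 and −0.34 without the members with shared exons, where 9 members were higher. These scalings also move all genes: relative to the median of all genes tested the members' median was −0.19, and −0.19, −0.19 and −0.16 with upper quartile factors, library sizes alone and FPKM. The protein-coding genes tested had a median of −0.20 with TMM and −0.46 in FPKM, in both below that of the members. The members thus lay below all genes but not below the protein-coding ones. With DESeq2 and without a filter 30884 genes were tested, and the median of all genes was 0.63 and 0.45 while that of the members was −0.15 and −0.25. Lower and higher members numbered 14 and 15 with upper quartile factors and 21 and 12 with library sizes alone, beside 17 and 15 with TMM, where 36.0% and 48.0%, 48.0% and 38.0%, and 41.1% and 43.5% of all genes were lower and higher. The members lower by at least 1.5 numbered 5 in the FPKM values with a pseudocount of 0.1, and 5 passed a threshold of 1. The log2 ratio of the summed level was −0.0560, −0.30 by library size alone and −0.21 in FPKM.

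When 1 library at a time was left out, the median ranged from −0.26 (without DMSO replicate 2 or without THZ1 replicate 3) to −0.12, the lower members from 17 to 20, the higher from 14 to 15, and those lower by at least 1.5 stayed at 3. In these runs 39.2% to 40.6% of all genes tested were lower and 42.5% to 44.2% higher. The median of iron-sulfur cluster assembly, −0.16, was −0.26, −0.25 and −0.0316 without DMSO replicates 1, 2 and 3 in turn. NDUFS6 ranged down to −0.20 without DMSO replicate 2. Without DMSO replicate 3, NDUFS6 (0.0385) and NDUFA4 (0.0464) turned. NDUFA4 turned with RLE factors (0.0141). With upper quartile factors NDUFS6 (0.10), NDUFA6 (0.11), NDUFA4 (0.14) and the medians of iron-sulfur cluster assembly (0.0293) and complex III (0.0158) turned. With at least 10 counts in every library NDUFS6 was at 0.0418, NDUFA6 at 0.0503 and NDUFA4 at 0.0797. With library sizes alone the median of complex IV was −0.12, COQ5 −0.13 and NDUFAF4 −0.16, and without a filter NDUFAF4 was at −0.00324. In the FPKM values NDUFB8 was at −0.21, the median of the membrane arm at −0.21, MT-ND6 at −0.14 and NDUFAF4 at −0.00147, with the same values at a mean FPKM of at least 1, and with a pseudocount of 0.1 at −0.32, −0.32, −0.14 and −0.00149.

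Libraries of the 2 treatments share replicate numbers only: the deviations of same-numbered libraries had correlations of −0.00400, 0.000969 and 0.0206. With the replicate number as a block, 17 members were lower and 15 higher, with a median of −0.16, beside 40.8% and 43.2% of all genes. Depth limits NDUFA7 most, with at least 3 counts in a library, where members reached up to 2721.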

Other observations

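Outside the subunits, genes with related symbols were read from the count table. NDUFA4L2, a paralog of NDUFA4 known as a hypoxia-induced gene (ENSG00000185633, chromosome 12 from 57628686 to 57634498), had 5.79, 3.20 and 4.56 CPM under DMSO and 65.1, 55.9 and 61.5 CPM under THZ1, with no overlap and a log2FC of 3.75 (SE 0.14, adjusted p = 2.11e-21) in edgeR. NDUFA4 itself was not called. The antisense gene NDUFV2-AS1 (ENSG00000266053, chromosome 18 from 9121177 to 9136643) had 2.55 ± 0.272 CPM under DMSO and 8.65 ± 1.31 CPM under THZ1 (log2FC 1.76), and NDUFB2-AS1, which overlaps NDUFB2, had 44.2 ± 7.78 and 36.4 ± 6.04 CPM (log2FC −0.28). The divergent gene NDUFA6-DT was at 0.0417 (adjusted p = 0.873).

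Of 57 pseudogenes of these subunits that are counted, 19 had at least 1 count and 2 passed the filter. NDUFB4P8 (chromosome 1 from 1314046 to 1314412) had 0.0827, 0.246 and 0.169 CPM with DMSO, at or below 3 counts in each library, and 6.31, 4.98 and 3.61 CPM under THZ1. NDUFV2P1 (chromosome 19 from 53727226 to 53728132) had 3.06, 2.54 and 2.78 CPM under DMSO and 0.657, 1.11 and 0.535 CPM under THZ1, a log2FC of −1.86 (SE 0.38, adjusted p = 4.41e-05), which is opposite in sign to that of NDUFV2. Reads of a pseudogene and its parent can be shared where their sequences are alike, and this was not tested.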
